A study of Mus musculus with 24 samples.

Results

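The 36 genes described here make, sense, move and export cholesterol and fatty acids. They comprise 18 enzymes of cholesterol synthesis, 4 genes of SREBP (sterol regulatory element-binding protein) processing, 6 genes of fatty acid synthesis, 4 genes of the liver X receptor (LXR) and cholesterol efflux branch, and 4 genes of cholesterol trafficking and esterification. They were picked by name as members of these pathways and not by a measured value, although earlier results of these data were known. They are 36 of the 45706 mouse Ensembl genes counted. All 36 were found, and all 36 passed the filter on low counts in every comparison. RNA was sequenced from tissue-resident macrophages (TRMs) taken directly from the animal (ex vivo) and from TRM-like cells (TRM-LCs) grown from the same organs (in vitro), with 3 libraries in each of 8 groups. All mice were female C57BL/6J aged 8 to 12 weeks, and no group carried a mutation, a transgene or a drug. Microglia (MG, CD45low CD11b+, brain), Kupffer cells (KCs, CD45+ CD11b+ F4/80+ TIM-4+, liver), peritoneal macrophages (PMs, CD45+ CD115+ CD11b+ F4/80+) and alveolar macrophages (AMs, CD45+ SiglecF+ CD11blow, lung) were purified by FACS. Their cultured counterparts, MG-LCs, KC-LCs, PM-LCs and AM-LCs, were grown for about 2 weeks, with no sort described, in polyethylenimine-coated flasks in DMEM with fetal calf serum. KC-LCs and PM-LCs received M-CSF and MG-LCs received M-CSF with IL-34, all at low oxygen with high glucose, whereas AM-LCs received GM-CSF at atmospheric oxygen without added glucose. Growth factor, oxygen and glucose therefore cannot be told apart from cell type when AM-LCs are compared with the other cultures, and a flask held cells of 1 liver or pooled cells of 3 mice for the other organs.

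Cells sense cholesterol in the endoplasmic reticulum membrane. When it is scarce, Scap escorts the SREBP precursors to the Golgi for cleavage, and the released factors switch on sterol synthesis (mainly SREBP2, from Srebf2) and fatty acid synthesis (mainly SREBP1, from Srebf1), while Insig1, itself an SREBP target, holds the complex back when sterol is plentiful. When sterol is in excess, oxysterols activate the LXRs, which raise cholesterol export through Abca1 and Abcg1 and, through Mylip, an E3 ligase, the breakdown of lipoprotein receptors. Macrophages take up cholesterol with dead cells and debris, and alveolar macrophages also clear surfactant, a lipid film rich in phospholipid and cholesterol.

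Promoter sequence was available for 28 of the 36 genes from RefSeq (assembly GRCm38.p6), as 250 bases before and 50 bases after each start, giving 34 promoters. Of the stretches that match an SREBP or LXR motif, 6 are shown as examples of these letters, 1 for each of Hmgcs1, Srebf2, Insig1, Abca1, Srebf1 and Fasn. Capitals mark the matched letters, each stretch reads 5′ to 3′ on the gene's strand, and positions count from the transcription start.
Hmgcs1: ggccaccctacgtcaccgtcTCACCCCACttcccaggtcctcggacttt
Srebf2: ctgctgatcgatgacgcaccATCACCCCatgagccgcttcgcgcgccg
Insig1: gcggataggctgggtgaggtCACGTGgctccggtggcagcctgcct
Abca1: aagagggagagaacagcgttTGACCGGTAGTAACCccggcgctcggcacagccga
Srebf1: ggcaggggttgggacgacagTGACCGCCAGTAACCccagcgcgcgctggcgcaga
Fasn: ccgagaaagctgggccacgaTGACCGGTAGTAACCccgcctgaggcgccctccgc
The Hmgcs1 stretch (chr13:119690194-119690242, plus strand, 137 bases before the start) holds the sterol regulatory element TCACNCCAC, which is found on either strand in 1.05% of all 32851 RefSeq promoters and in 1 of the 34 promoters here. The Srebf2 stretch (chr15:82147086-82147133, plus strand, 163 bases before the start) holds the shorter form NTCACNCC, which overlaps the longer element and is found in 13.3% of all promoters and in 4 of these 34 (11.8%), those of Hmgcs1, Msmo1, Srebf2 and Acat2. The Insig1 stretch (chr5:28071291-28071336, plus strand, 101 bases before the start) holds the E-box CACGTG, found in 6.02% of all promoters and in 6 of these 34, of Hsd17b7, Dhcr7, Sc5d, Insig1, Scap and Abca1. The other 3 stretches hold a loose LXR direct repeat, GGTNA and GGTNA parted by 5 bases, on the opposite strand: Abca1 (chr4:53159928-53159982, minus strand, 67 bases before the start), Srebf1 (chr11:60210619-60210673, minus strand, 182 bases before the start) and Fasn (chr11:120824738-120824792, minus strand, 225 bases before the start). Abca1 belongs to the LXR and efflux group, and Srebf1 and Fasn to the SREBP and fatty acid groups. This repeat is found in 0.621% of all promoters, and the stricter GGTCA and AGGTCA parted by 4 bases in 0.0213% of all and in 0 of these 34. The matched letters of the Abca1 and Fasn repeats are the same 15 bases. A CCAAT box on either strand, which NF-Y binds beside SREBP, is found in 33.8% of all promoters and in 14 of the 18 promoters of cholesterol synthesis genes. A match is a description of letters and not evidence that a factor binds.

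Library totals ran from 29569486 to 47105111 reads (median 35965750), so that 3 reads correspond to 0.0659 to 0.112 CPM (counts scaled to a TMM-adjusted library total), and intervals and floors cover counting error only. Markers that define each sorted population were high in it and low in its culture. The 4 KC markers (Clec4f, Vsig4, Timd4, Cd5l) summed to 13922, 24940.5 and 25415 CPM in sorted KCs and to 16.9 to 92.1 CPM in KC-LCs, and the first KC library also had the lowest macrophage marker sum of all. Clec4f, which defines KCs, had 0 reads in KC-LC libraries 2 and 3 and 0.165 CPM in library 1. This gene therefore does not mark these cultures as KCs. The paper gives other evidence for their identity: by quantitative PCR, Id3 and Nr1h3 were significantly higher in KC-LCs than in the other cultures. Those genes were not among the ones examined here. The 5 MG markers summed to between 22048 to 22854 CPM in MG and 519.8 to 3463 CPM in MG-LCs, the 4 PM markers to 16340.3 to 18392 CPM in PMs and 78.2 to 127 CPM in PM-LCs, and the 4 AM markers to 3375 to 3575 CPM in AMs and 152 to 741 CPM in AM-LCs. Some cultures held RNA of other cells. The 8 fibroblast and mesothelium markers summed to 31829, 7.43 and 1023 CPM in the 3 MG-LC libraries, 22.3, 2202 and 370.0 CPM in PM-LCs and 16.7, 178 and 1715 CPM in AM-LCs, against 3.65 to 23.9 CPM in sorted KCs, the highest of the sorted groups. Sorted KCs held hepatocyte RNA, with all 8 hepatocyte markers above KC-LCs in every library and Alb, the serum albumin gene, at 129.5, 41.4 and 73.6 CPM, whereas Fga, Fgb and Ahsg, which make secreted plasma proteins, had 0 reads in KC-LCs. The 7 alveolar type II cell markers summed to 72.0 to 102 CPM in AMs and 27.6 to 43.4 CPM in AM-LCs, but most of that sum was Abca3, which sorted MG held at 73.0, 84.8 and 65.6 CPM. The surfactant gene Sftpc stood at 8.25, 5.72 and 3.41 CPM in AMs and had 0 reads in the other sorted libraries. In these bulk libraries fewer cells of a type and less RNA per cell cannot be told apart. P-values measure the spread between libraries that the submitters call biological replicates, and that spread may be partly technical.

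**Figure D1:**
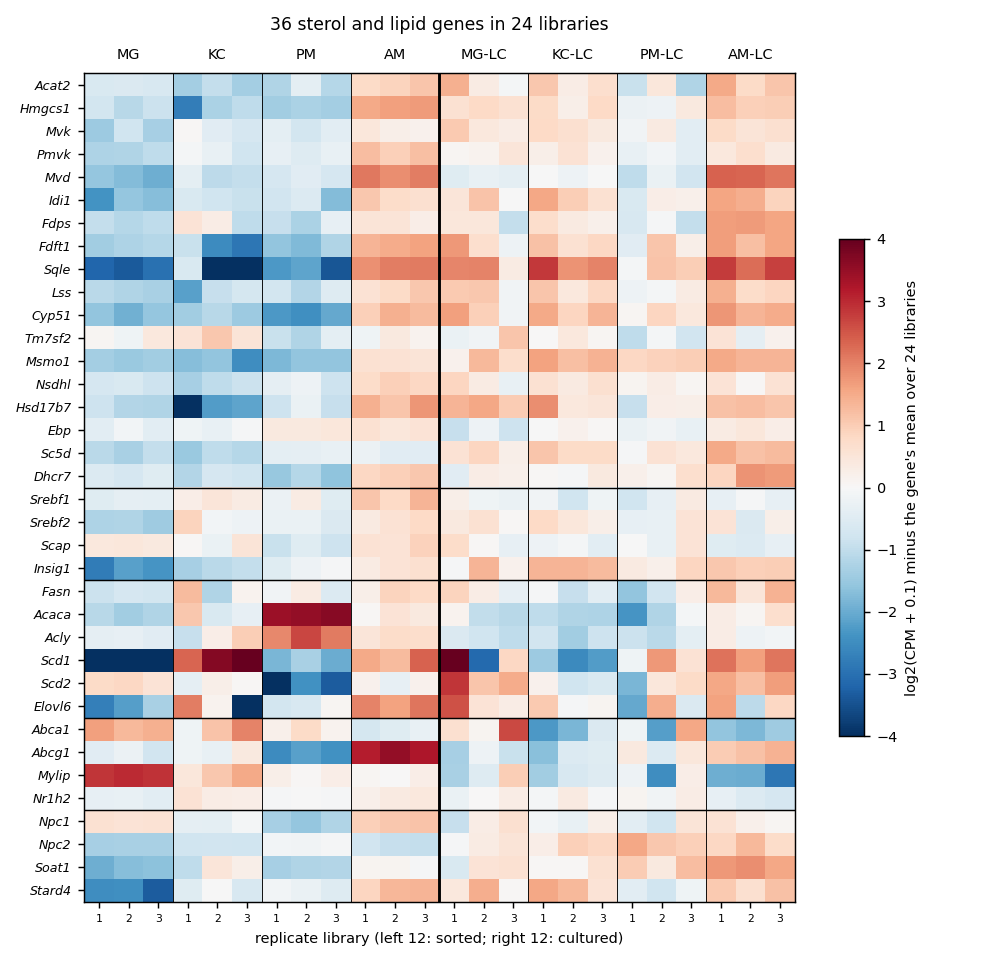
Heat map of the 36 genes (rows, grouped by role from cholesterol synthesis at the top to trafficking at the bottom) in the 24 libraries (columns), coloured by log2(CPM + 0.1) minus the mean of that gene over the 24 libraries. Cholesterol synthesis genes are blue in sorted MG, KCs and PMs and red in sorted AMs and most cultures, Acaca and Acly are darkest red in sorted PMs, Abcg1 in sorted AMs and Mylip in sorted MG.

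The first question was how these genes stand in the 4 sorted populations. Sorted AMs had the highest summed level of cholesterol synthesis genes. The 18 synthesis genes together reached 1046, 1086 and 1134 CPM in the 3 AM libraries, against 258 ± 4.19 CPM in MG, 259.9 ± 11.4 CPM in KCs and 297 ± 8.08 CPM in PMs (mean ± SD, n = 3 each), so that every AM library was above every library of the other sorted populations. In edgeR's quasi-likelihood test of AMs against the mean of the other 3 populations, with Benjamini-Hochberg adjustment over 15732 genes, 29 of the 36 genes were higher in AMs (24.7% of all genes tested were) and 2 lower (21.9% of all). All of the synthesis genes but Tm7sf2 rose, 17 of 18, with a median log2 difference of 1.90 against -0.08 over all genes.

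Sqle, squalene epoxidase, the enzyme that commits squalene to the sterol branch (ENSMUSG00000022351, chr15:59315077-59331192, plus strand, GRCm38), had the widest range of the synthesis genes over the 12 sorted libraries. It stood at 91.2, 106 and 108 CPM in sorted AMs, 2.77, 2.37 and 3.13 CPM in MG, 16.9, 1.46 and 0.911 CPM in KCs and 5.09, 5.87 and 2.29 CPM in PMs. No AM library overlapped the others, and the first KC library lay far above the other KC libraries. The log2 difference of AMs from the rest was 4.58 ± 0.60, adjusted p = 7.38e-05 (± SE) by edgeR's quasi-likelihood test, and 5.35 without that KC library. Hmgcs1, the HMG-CoA synthase whose promoter stretch with the sterol element is printed above, reached 147, 162 and 167 CPM in AMs, 23.6 to 30.8 CPM in MG, 7.46 to 25.2 CPM in KCs and 19.5 to 21.2 CPM in PMs (2.89 ± 0.23, adjusted p = 1.45e-06, edgeR). Mvd, the mevalonate diphosphate decarboxylase, stood at 127, 106 and 123 CPM in AMs and at most 22.5 CPM in any other sorted library (3.05 ± 0.14, adjusted p = 1.58e-08, edgeR). Per kilobase of exon Mvd was the highest synthesis gene in AMs, at 63.8 CPM per kb, followed by Ebp, a sterol isomerase, at 42.8 and Hmgcs1 at 34.5 CPM per kb. The smallest called differences of the synthesis genes were those of Sc5d (0.53) and Ebp (0.57), and the calls of Sc5d (without AM library 1, adjusted p = 0.0744) and Fdps (without any AM or MG library or the first PM library, 0.0501 to 0.11) ended when a library was left out.

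All 4 SREBP processing genes were also higher in AMs. Insig1, the sterol-dependent brake, ranked from MG (5.23, 8.09 and 7.10 CPM) through KCs (14.8, 17.5 and 19.2 CPM) and PMs (26.8, 32.3 and 35.6 CPM) to AMs (46.5, 54.7 and 57.6 CPM), with no overlap between neighbours in this order. Its log2 difference was 1.79 ± 0.15, adjusted p = 1.50e-06 for AMs and -2.20 ± 0.18, adjusted p = 1.53e-06 for MG by edgeR. Srebf1 and Srebf2, the precursor genes of SREBP1 and SREBP2, were higher in AMs by 1.16 ± 0.15 and 1.06 ± 0.20, and Scap, the escort, by 0.77 ± 0.15 on the log2 scale.

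The fatty acid synthesis genes had their highest sorted levels in different populations. In the AM comparison 3 of the 6 were higher in AMs (24.7% of all genes) and 0 lower (21.9%), with a class median of 0.84. In the PM comparison 2 were higher in PMs (20.8% of all genes) and 1 lower (15.1%), with a median of -0.41. Fasn and Elovl6, a fatty acid elongase, had their highest sorted mean in AMs. Acly, the ATP citrate lyase that supplies cytosolic acetyl-CoA (ENSMUSG00000020917, chr11:100476353-100528000, minus strand), and Acaca, the acetyl-CoA carboxylase that makes malonyl-CoA (ENSMUSG00000020532, chr11:84129672-84401651, plus strand), were highest in sorted PMs. Acly stood at 1224, 2021 and 1339 CPM in PMs, 446, 527 and 521 CPM in AMs, 169, 386 and 629 CPM in KCs and 248, 256 and 234 CPM in MG (2.09 ± 0.27, adjusted p = 8.23e-05, edgeR, PMs against the rest). Acaca stood at 82.3, 88.6 and 95.7 CPM in PMs and at most 16.1 CPM in any of the other 21 libraries of the study (3.79 ± 0.27, adjusted p = 7.62e-07, edgeR). For both genes every PM library was above every other sorted library, and per kilobase Acly was the most abundant of the 36 genes in PMs, at 289 CPM per kb. Scd2, a stearoyl-CoA desaturase that places the double bond in newly made fatty acids, was by contrast lowest in PMs, at 3.30, 12.6 and 6.74 CPM against 101 to 121 CPM in MG (-3.40 ± 0.36, adjusted p = 2.00e-05, edgeR, -3.99 without PM library 2). Its paralog Scd1 was highest in KCs, at 25.1, 63.5 and 96.5 CPM, and had 8, 1 and 0 reads in the 3 MG libraries. Fasn, the fatty acid synthase, was called lower in MG, at 25.3 to 28.8 CPM against 54.4 to 85.0 CPM in AMs (-1.12 ± 0.41, adjusted p = 0.0382, edgeR), and that call ended without any MG or AM library or PM library 1 or 2 (adjusted p = 0.0507 to 0.138). In the PM comparison 6 of the 36 genes were higher in PMs (20.8% of all genes) and 10 lower (15.1% of all).

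Among the LXR and efflux genes, Abcg1 had its highest sorted mean in AMs, Mylip and Abca1 in MG, and Nr1h2 in KCs. Abcg1, the exporter that passes cholesterol to HDL (ENSMUSG00000024030, chr17:31057675-31117988, plus strand), stood at 1571, 2015 and 1669.7 CPM in AMs, 159, 144 and 234 CPM in KCs, 129, 151 and 104 CPM in MG and 30.8, 39.2 and 33.0 CPM in PMs. AMs were above and PMs below every other sorted library (4.26 ± 0.15, adjusted p = 3.85e-09, and -3.30 ± 0.21, adjusted p = 2.91e-07, edgeR), and per kilobase Abcg1 was the most abundant of the 36 genes in AMs at 240.0 CPM per kb. Abca1, which exports cholesterol to lipid-poor apolipoprotein A-I, ran the other way: 75.7, 88.3 and 102 CPM in AMs was below every other sorted library, while MG held 388, 305 and 334 CPM, KCs 110.5, 274 and 495 CPM and PMs 142, 213 and 137 CPM (-1.51 ± 0.35, adjusted p = 0.00456, edgeR, AMs against the rest). The MG and KC libraries overlapped for Abca1. Mylip (ENSMUSG00000038175, chr13:45389742-45412022, plus strand) was highest in MG at 313, 342 and 316 CPM, with KCs at 58.2, 90.2 and 122 CPM and PMs and AMs within 44.4 to 51.3 and 43.0 to 51.2 CPM (2.43 ± 0.15, adjusted p = 1.71e-07, edgeR, MG against the rest). PMs and AMs overlapped for Mylip. Nr1h2, the LXRβ gene, varied least of the 4, between 76.2 and 153 CPM over the 12 sorted libraries.

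MG and KCs completed the picture from the low side. Of the 36 genes 23 were lower in MG than in the mean of the other sorted populations (25.2% of all genes) and 4 higher (26.2% of all), and 12 were lower in KCs (12.4% of all) and 6 higher (24.1% of all). The 4 higher in MG were Scd2, Abca1, Mylip and Npc1, and the 6 higher in KCs were Tm7sf2, Srebf2, Scd1, Scd2, Nr1h2 and Soat1. A gene above this mean need not be highest in that population. Scd2 in KCs, at 53.8, 80.6 and 71.3 CPM, was below every MG library and overlapped AMs (76.5, 54.3 and 77.1 CPM). PMs alone lay far lower, at 3.30, 12.6 and 6.74 CPM. Soat1 in KCs also overlapped AMs. Stard4, a soluble sterol carrier, was lowest in MG, at 1.52, 1.56 and 0.805 CPM against 16.3 to 23.3 CPM in AMs (-3.01 ± 0.30, adjusted p = 8.31e-06, edgeR). Hsd17b7, a sterol ketone reductase, was lowest in KCs at 0.3, 1.88 and 2.06 CPM (-2.61 ± 0.49, adjusted p = 0.00141, edgeR). The KC call of Srebf2 rested on the first KC library (153 CPM against 76.0 and 71.0 CPM) and ended without it, as it did without any AM or MG library or PM library 3 (adjusted p = 0.0504 to 0.453). Abca1 in MG lost its call without MG library 1 (0.0548), Tm7sf2 in KCs without KC library 2 (0.0626), and Scd2 in KCs without any AM or MG library, KC library 2 or 3 or PM library 3 (0.0657 to 0.158). These one-against-rest comparisons share libraries, so their counts are not independent of each other. Against each of the other 3 populations separately, 18 genes were called in AMs, 10 in MG, 10 in PMs and 2 in KCs. The share of all genes that passes this rule was not computed, so these counts do not rank the populations.

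**Figure D2:**
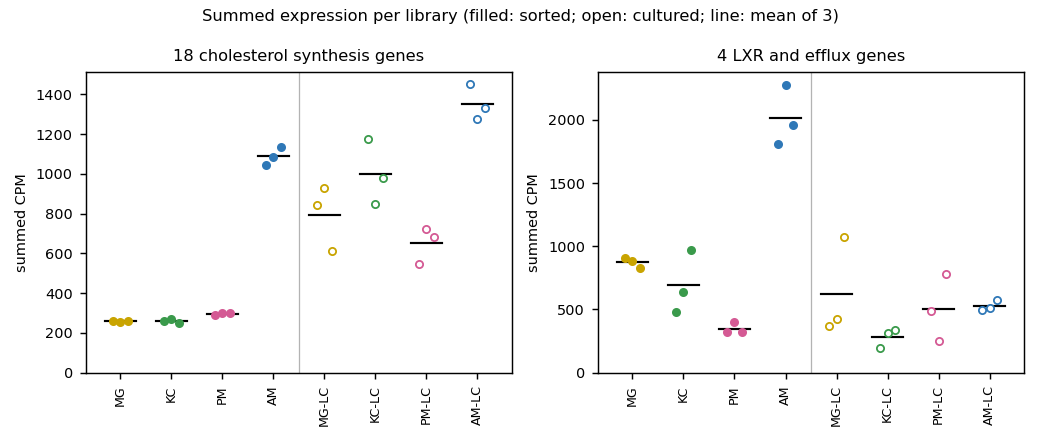
Summed CPM of the 18 cholesterol synthesis genes (left) and of the 4 LXR and efflux genes (right) in each library, with filled points for sorted cells, open points for cultures and a line at the mean of 3. The synthesis sum is low in sorted MG, KCs and PMs and high in sorted AMs and in all cultures, while the efflux sum is highest in sorted AMs.

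The second question was what culture changed. Values are given as log2 fold change of sorted over cultured cells, so that a negative value means higher in vitro, ± standard error (3 libraries against 3). In MG, 22 of the 36 genes were higher in MG-LCs (25.2% of 14416 genes tested were) and 1 was higher in sorted MG (21.2% of all). In KCs, 15 were higher in KC-LCs (14.4% of 13629) and 3 in sorted KCs (19.4%). In PMs, 15 were higher in PM-LCs (16.8% of 13581) and 3 in sorted PMs (12.1%). In AMs the genes split more evenly, with 8 higher in AM-LCs (25.9% of 13196) and 10 in sorted AMs (22.9%). Over all 36 genes the MG comparison had a median log2 fold change of -1.39 (all genes tested, -0.03), the KC comparison -0.52 (all genes, 0.01), the PM comparison -0.66 (all genes, -0.01) and the AM comparison -0.04 (all genes, -0.04). These 4 comparisons share no library. The genes called higher in vitro in all 4 were 5: Sqle, Msmo1, Sc5d, Insig1 and Npc2, and 0 were called higher ex vivo in all 4. The share of all genes called alike in all 4 was not computed, so these counts do not show an excess. Tm7sf2, a sterol reductase, was the only member called in none of the 4 culture comparisons.

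**Figure D3:**
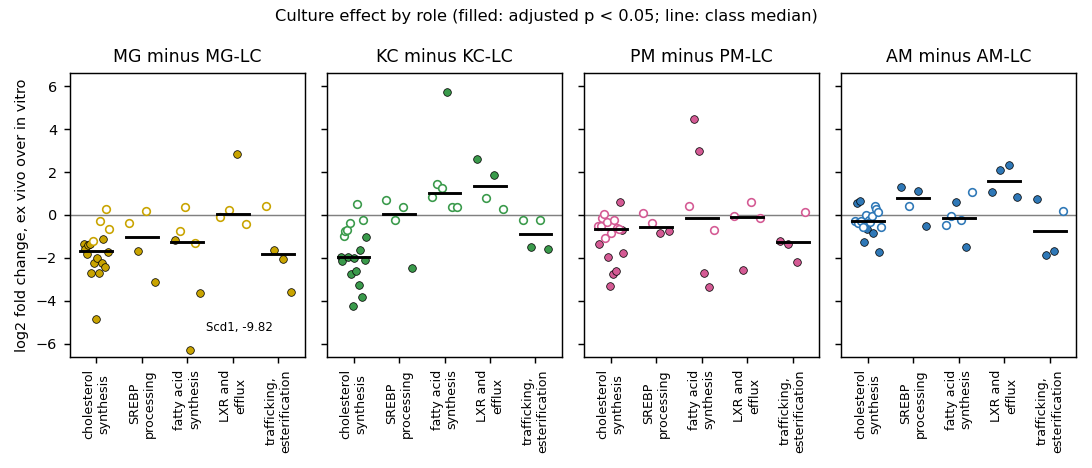
Log2 fold change of sorted over cultured cells for each of the 36 genes, by role, in the 4 populations. Filled points passed an adjusted p of 0.05, the line is the class median, and Scd1 in MG (-9.82) is drawn at the lower edge: most cholesterol synthesis genes lie below 0 in MG, KCs and PMs and around 0 in AMs, and LXR and efflux genes lie above 0 in AMs.

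The summed RNA level of the cholesterol synthesis genes was higher in culture in MG, KCs and PMs. In MG 14 of 18 synthesis genes were higher in vitro and 0 higher ex vivo (median -1.66), and in KCs 12 and 0 (median -1.96). In PMs these counts were 7 and 1, with 10 not called (median -0.66). In AMs 4 of 18 were higher in vitro and 2 higher ex vivo (median -0.28). Of all genes 25.2%, 14.4%, 16.8% and 25.9% were higher in vitro in MG, KCs, PMs and AMs, and 21.2%, 19.4%, 12.1% and 22.9% higher ex vivo. The AM counts did not exceed these shares. Hmgcs1, Fdft1, Sqle, Cyp51, Msmo1 and Sc5d were the 6 synthesis genes called higher in vitro in MG, KCs and PMs alike. The share of all genes called in these 3 alike was not computed. The summed level of the 18 genes was 842, 928 and 611 CPM in MG-LCs, 1173, 850.2 and 980.4 CPM in KC-LCs, 547, 721 and 685 CPM in PM-LCs and 1453, 1276 and 1332 CPM in AM-LCs, so that every MG-LC, KC-LC and PM-LC library lay above all sorted libraries of its own kind.

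Sqle had the largest fold change of the synthesis genes in MG, KCs and PMs. It reached 99.1, 102 and 31.8 CPM in MG-LCs, 182, 88.4 and 102 CPM in KC-LCs and 24.2, 56.4 and 51.2 CPM in PM-LCs, and no library overlapped the sorted counterpart. By edgeR's quasi-likelihood test the changes were -4.84 ± 0.52, adjusted p = 0.00173 in MG, -4.26 ± 1.10, adjusted p = 0.0214 in KCs and -3.33 ± 0.47, adjusted p = 0.00237 in PMs, a 28.6-fold, 19.1-fold and 10-fold higher level in vitro. The KC value was -6.73 without the first KC library, and its call ended without KC library 2 or KC-LC library 1 or 2 (adjusted p = 0.0541 to 0.0597). In AMs Sqle moved the same way but little, from the already high sorted level to 179.9, 120.1 and 169.8 CPM (-0.64 ± 0.18, adjusted p = 0.0202, edgeR), a call that ended without any AM library or AM-LC library 1 (adjusted p = 0.0532 to 0.0777).

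Msmo1 and Cyp51, which remove methyl groups from the sterol ring, followed. Msmo1 went from 39.1, 35.7 and 37.5 to 113, 243 and 161 CPM in MG, from 30.5, 33.3 and 17.7 to 301, 231 and 259 CPM in KCs and from 28.3, 33.3 and 33.0 to 177, 188 and 198 CPM in PMs. The PM value of -2.59 ± 0.16, adjusted p = 8.21e-05 had the smallest adjusted p of the 36 genes in that comparison, and the MG and KC values were -2.23 ± 0.31 and -3.28 ± 0.31. Cyp51 was higher in vitro by -2.69 ± 0.46, -2.59 ± 0.26 and -2.76 ± 0.27 in MG, KCs and PMs, with adjusted p of 0.0062, 0.000688 and 0.000438 by edgeR, and in AMs it was -0.33 ± 0.17 (adjusted p = 0.138). Sc5d, which sets the C5 double bond, was higher in vitro in all 4 populations (-1.71, -2.10, -0.70 and -1.71). Its PM call ended without any PM library or PM-LC library 2 or 3 (adjusted p = 0.0561 to 0.153).

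Hmgcs1 separated AMs from the rest. It went from 30.8, 23.6 and 28.1 to 79.0, 89.4 and 78.8 CPM in MG (-1.60 ± 0.16, adjusted p = 0.0015, edgeR), and was higher in vitro in KCs (-2.15 ± 0.44) and PMs (-1.37 ± 0.23). In AMs it was lower in culture, 147, 162 and 167 against 122, 100.2 and 102 CPM (0.54 ± 0.12, adjusted p = 0.00862, edgeR), with no overlap. Pmvk, phosphomevalonate kinase, showed the same pair of directions, -1.42 ± 0.22 in MG and 0.64 ± 0.15 in AMs, the latter call ending without AM library 3 (adjusted p = 0.0539). Fdps, which makes farnesyl diphosphate, was called only in AMs, 5.17, 5.18 and 4.32 against 11.6, 11.9 and 10.9 CPM (-1.25 ± 0.22, adjusted p = 0.00353, edgeR), and shares exonic bases with Gm43738 over 26.7% of its exon length.

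**Figure D4:**
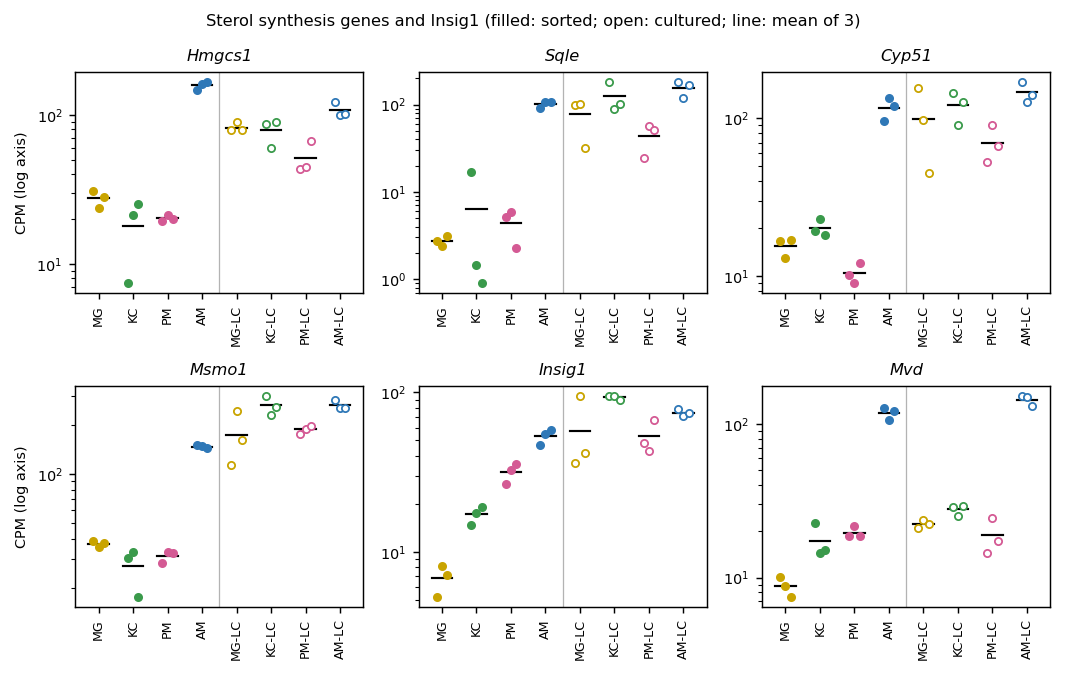
CPM (log axis) of Hmgcs1, Sqle, Cyp51, Msmo1, Insig1 and Mvd in each library, with filled points for sorted cells, open points for cultures and a line at the mean of 3. Sorted MG, KCs and PMs lie below their cultures for every gene but Mvd in PMs, sorted AMs lie above the other sorted populations, and Mvd stays high only in AMs and AM-LCs.

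The remaining synthesis genes differed in breadth. Acat2, Idi1, Lss, Nsdhl and Hsd17b7 were higher in vitro in MG and KCs, from -1.10 (Nsdhl in MG) to -3.80 (Hsd17b7 in KCs, -3.19 without KC-LC library 1). Mvk and Mvd were called in MG alone (-1.82 ± 0.34 and -1.36 ± 0.21), Dhcr7, the last reductase of the pathway, in KCs and PMs (-1.01 ± 0.25 and -1.77 ± 0.24), and Ebp in PMs, where it was higher ex vivo (0.62 ± 0.15). Fdft1, squalene synthase, changed by -2.23 ± 0.50, -2.73 ± 0.58 and -1.97 ± 0.43 in MG, KCs and PMs. Without MG-LC library 1 its MG value was -1.61, and without the first KC library its KC value was -3.66. Several calls ended when 1 library was left out. In MG these were Acat2, Idi1, Fdft1 and Nsdhl without any MG library (Nsdhl also without MG-LC library 2, adjusted p of 0.126 to 0.131, 0.0593 to 0.069, 0.0653 to 0.0739 and 0.0639 to 0.125) and Mvk without MG library 1 or 3 (0.0505 to 0.0507). In KCs they were Idi1 without any KC-LC library or KC library 2 or 3 (0.0835 to 0.177) and Dhcr7 without KC-LC library 3 (0.0706), and in PMs Fdft1 and Ebp without any PM library (Ebp also without PM-LC library 1, 0.0514 to 0.0708 and 0.0603 to 0.0928). Counts of 3 of these genes are less certain: 39.1% of the 50-base windows of Acat2 transcripts also occur in Acat3 or Tcp1, 25.3% of those of Idi1 in other genes, and Fdft1 shares 18.3% of its exon length with Ctsb on the other strand, which reads from a kit that does not keep the strand cannot tell apart. Hmgcs1 and Tm7sf2 each share 12.1% and Scap 13.2% of exon length with another gene.

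Proliferation and other cells moved with these changes in part. The 6 cell cycle markers were all above their sorted level in every MG-LC library (10, 6.10 and 6.51 CPM in MG and 343, 475 and 99.3 CPM in MG-LCs), 1 of 6 was in PMs (42.3 to 56.5 and 21.0 to 85.4 CPM), and the KC and KC-LC sums were 449, 146 and 191 and 637, 260.0 and 268 CPM. Their part in the result was not tested. Without MG-LC library 1, which held the most fibroblast RNA, 25 of the 36 genes were higher in MG-LCs, and 14 were without MG library 1, the lowest count when a library was left out. In PMs the counts ran from 8 (without PM library 1) to 14 and in KCs from 12 to 18. All 3 sorted PM libraries had fibroblast sums of at most 12.7 CPM, and 7 of the 8 fibroblast and mesothelium markers were above all sorted PM libraries in every PM-LC library.

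Among the SREBP genes Insig1 had the largest change in MG and KCs. It was at 35.8, 94.4 and 41.8 CPM in MG-LCs, 94.4, 94.8 and 89.9 CPM in KC-LCs, 47.9, 43.1 and 67.3 CPM in PM-LCs and 78.8, 71.2 and 73.8 CPM in AM-LCs, above its sorted counterpart in every library of all 4. By edgeR the MG change was -3.10 ± 0.45, adjusted p = 0.00387 and the KC change -2.45 ± 0.22, adjusted p = 0.000507. Those of PMs (-0.76 ± 0.23, adjusted p = 0.0466) and AMs (-0.51 ± 0.12, adjusted p = 0.0124, edgeR) were smaller. The MG value was -2.51 without MG-LC library 2, and the PM call ended without any PM library or PM-LC library 1 or 3 (adjusted p = 0.0652 to 0.162). Srebf2 was higher in vitro in MG, 34.7, 35.7 and 30.4 against 108, 125 and 85.6 CPM (-1.68 ± 0.19, adjusted p = 0.00202, edgeR), and was not called in KCs (-0.25 ± 0.35), PMs (-0.39 ± 0.28) or AMs (0.44 ± 0.28). Srebf1 was called in AMs, where it was higher ex vivo, 138, 112 and 163 against 51.1, 62.4 and 50.4 CPM (1.32 ± 0.17, adjusted p = 0.000918, edgeR). Scap was higher ex vivo in AMs (1.13 ± 0.15, adjusted p = 0.00104) and higher in vitro in PMs (-0.86 ± 0.26, adjusted p = 0.0458, edgeR), the PM call ending without any PM library or PM-LC library 1 or 3 (adjusted p = 0.0626 to 0.15).

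The fatty acid synthesis genes showed no shared direction across the 4 populations. Of the 6 genes 3 were higher in vitro and 0 higher ex vivo in MG, 0 and 1 in KCs, 2 and 2 in PMs, and 1 and 1 in AMs. Class medians were -1.24, 1.04, -0.15 and -0.14. Of all genes 25.2%, 14.4%, 16.8% and 25.9% were higher in vitro in MG, KCs, PMs and AMs, and 21.2%, 19.4%, 12.1% and 22.9% higher ex vivo. With 6 genes, 1 call in a direction in KCs or AMs is near these shares. The high PM level of Acly and Acaca was lost in culture. Acly went from 1224, 2021 and 1339 CPM in PMs to 176, 151 and 241 CPM in PM-LCs (3.00 ± 0.28, adjusted p = 0.000389, edgeR, 7.98-fold), and Acaca to 1.39, 3.22 and 7.17 CPM (4.48 ± 0.57, adjusted p = 0.00151, 22.3-fold, and 5.28 on the log2 scale without PM-LC library 3). No PM-LC library came near a sorted PM library for either gene, and 30.4% of the 50-base windows of Acaca transcripts also occur in other genes. Acly was also higher ex vivo in AMs (0.62 ± 0.16, adjusted p = 0.015, edgeR), a call that ended without AM library 2 or 3 (adjusted p = 0.0596), and stood at 1.26 ± 0.45 in KCs and 0.39 ± 0.19 in MG, neither called.

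The desaturases moved the other way in PMs. Scd2 went from 3.30, 12.6 and 6.74 CPM in PMs to 19.0, 94.3 and 115 CPM in PM-LCs (-3.35 ± 0.75, adjusted p = 0.0152, edgeR) and Scd1 from 1.30, 1.93 and 1.17 to 4.38, 16.6 and 7.38 CPM (-2.70 ± 0.58, adjusted p = 0.0131, edgeR), and both calls ended without PM library 1 or 3 (adjusted p = 0.0621 to 0.0731 for Scd2 and 0.0691 to 0.0711 for Scd1). The Scd1 value was -1.98 without PM-LC library 2. In KCs Scd1 fell in culture, from 25.1, 63.5 and 96.5 to 1.74, 0.751 and 0.955 CPM (5.73 ± 0.62, adjusted p = 0.000939, edgeR). Hepatocytes express Scd1, and the hepatocyte marker sum was 369.7, 269 and 322 CPM in those KC libraries and 18.2 to 47.7 CPM in KC-LCs. That sum includes Trf, which is not particular to hepatocytes here. Trf stood at 95.9, 128 and 162 CPM in KCs and 18.1, 38.4 and 47.4 CPM in KC-LCs, but at 759, 901 and 837 CPM in sorted PMs. The part of hepatocyte RNA in the result was not tested. In MG the 9 Scd1 reads of the 3 sorted libraries stood against 7483 in MG-LCs. After scaling to TMM-adjusted library totals the ratio was 923, with a counting interval of 486 to 2018. MG-LC library 1 held most of the MG-LC reads (189, 0.475 and 8.84 CPM in the 3 MG-LC libraries). The fitted value was -9.82 ± 2.63, adjusted p = 0.0251 by edgeR, -6.03 without MG-LC library 1 and -12.05 without MG library 1, and the call ended without any MG library (adjusted p = 0.0838 to 0.105). The same library held the most fibroblast RNA, with Col3a1, a fibrillar collagen, at 15402 CPM, and its part in the result was not tested.

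Fasn and Elovl6, the elongase that acts on palmitate, were called higher in vitro in MG and in no other population. Fasn went from 25.3, 28.8 and 27.7 to 85.7, 57.1 and 37.1 CPM (-1.16 ± 0.31, adjusted p = 0.0257, edgeR) and Elovl6 from 0.417, 0.647 and 1.30 to 19.6, 4.88 and 4.10 CPM (-3.61 ± 0.83, adjusted p = 0.0158, edgeR). The MG-LC libraries did not overlap sorted MG for either gene. The Fasn call ended without any MG library or MG-LC library 2 (adjusted p = 0.0514 to 0.11) and the Elovl6 call without MG library 1 or 2 (0.0767 to 0.0806), and Elovl6 was -2.53 without MG-LC library 1 and -4.20 without MG library 3. Scd2 was higher in AM-LCs than in AMs as well, 202, 156 and 218 against 76.5, 54.3 and 77.1 CPM (-1.49 ± 0.20, adjusted p = 0.00106, edgeR).

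All 4 LXR and efflux genes were higher ex vivo in AMs (class median 1.59, 22.9% of all genes higher). In KCs 2 of 4 were (median 1.34, 19.4% of all genes) and in MG 1 of 4 (median 0.06, 21.2% of all), while in PMs 1 of 4 was higher in vitro (median -0.09, 16.8% of all). With 4 genes, 1 call in MG or PMs is near these shares. Mylip fell in culture from 313, 342 and 316 to 17.4, 30 and 84.6 CPM in MG (2.86 ± 0.60, adjusted p = 0.0113, edgeR, 3.75 without MG-LC library 3), from 58.2, 90.2 and 122 to 16.3, 27.3 and 29.7 CPM in KCs (1.87 ± 0.35) and from 44.8, 43.0 and 51.2 to 11.0, 10.8 and 5.72 CPM in AMs (2.33 ± 0.26). Sorted and cultured libraries of these 3 populations did not overlap, while those of PMs did (0.60 ± 0.58).

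Abcg1 changed in opposite directions in the 2 populations at the ends of its range. In AMs it fell from 1571, 2015 and 1669.7 to 359, 399 and 461 CPM (2.09 ± 0.16, adjusted p = 0.000149, edgeR, 4.26-fold), and in PMs it rose from 30.8, 39.2 and 33.0 to 231, 121 and 245 CPM (-2.55 ± 0.30, adjusted p = 0.00099, edgeR, 5.86-fold). In MG and KCs it was not called (0.24 ± 0.33 and 0.81 ± 0.36). Abca1 was higher ex vivo in KCs (2.60 ± 0.63, adjusted p = 0.0168) and AMs (1.09 ± 0.16, adjusted p = 0.00181, edgeR), and the KC call ended without KC-LC library 1 or 2 (adjusted p = 0.0628 to 0.0813) and its value was 3.24 without KC-LC library 3. Its MG-LC and PM-LC libraries spread widely, at 194, 135 and 771 and 109.9, 26.9 and 361 CPM, with the third library of each the highest. Nr1h2 was higher ex vivo in AMs alone (0.82 ± 0.12, adjusted p = 0.00184, edgeR).

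**Figure D5:**
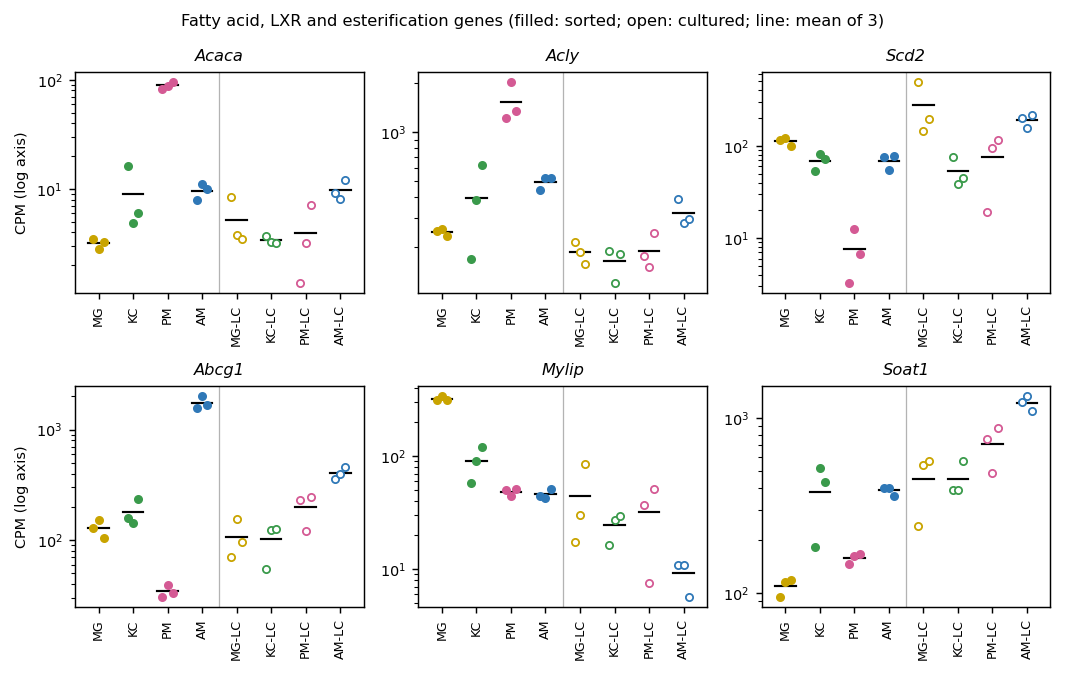
CPM (log axis) of Acaca, Acly, Scd2, Abcg1, Mylip and Soat1 in each library, with filled points for sorted cells, open points for cultures and a line at the mean of 3. Acaca and Acly are highest in sorted PMs, Abcg1 in sorted AMs, Mylip in sorted MG and Soat1 in AM-LCs.

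Trafficking and esterification genes were mostly higher in culture. Npc2, the soluble lysosomal cholesterol carrier, was higher in vitro in all 4 populations without overlap, for example 300.1, 307 and 308 against 742, 961 and 1078 CPM in MG, with log2 fold changes of -1.62 ± 0.25, -1.51 ± 0.28, -1.33 ± 0.20 and -1.87 ± 0.18 in MG, KCs, PMs and AMs and adjusted p from 0.000279 to 0.00651 by edgeR. Per kilobase it was the most abundant of the 36 genes in every culture, from 170.5 CPM per kb in MG-LCs to 324 in PM-LCs. Soat1, which esterifies cholesterol for storage in droplets, was higher in vitro in MG (-2.05 ± 0.37, adjusted p = 0.0072), PMs (-2.17 ± 0.24, adjusted p = 0.000858) and AMs (-1.68 ± 0.12, adjusted p = 0.000124, edgeR). In AMs it went from 397, 398 and 361 to 1243, 1338 and 1094 CPM and had the smallest adjusted p of the 36 genes there, while in KCs the groups overlapped (-0.25 ± 0.39). Stard4 was higher in vitro in MG, 1.52, 1.56 and 0.805 against 12.0, 25.0 and 9.27 CPM (-3.60 ± 0.53, adjusted p = 0.00412), and in KCs (-1.57 ± 0.39, adjusted p = 0.0175, edgeR), the KC call ending without KC library 3 or KC-LC library 1 or 2 (adjusted p = 0.0541 to 0.0697). Npc1, the membrane partner of Npc2, was higher in vitro in PMs (-1.23 ± 0.34) and higher ex vivo in AMs (0.74 ± 0.15), and the PM call ended without any PM library or PM-LC library 1 (adjusted p = 0.0531 to 0.13).

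Whether culture acted differently on the 4 populations was tested as the difference between each population's culture effect and the mean of the other 3, over all 24 libraries and 17408 genes. The effect in AMs differed for 17 genes in the direction of ex vivo (9.45% of all genes) and 1 in that of in vitro (7.68%). The 9 synthesis genes among them, Hmgcs1, Pmvk, Fdft1, Sqle, Lss, Cyp51, Msmo1, Nsdhl and Hsd17b7, ran from 1.37 (Lss) to 3.51 (Sqle, adjusted p = 0.00701, edgeR, and 4.33 without the first KC library), and all 4 SREBP genes were among them. Lss and Srebf2 lost the call without AM library 3 or AM-LC library 2 or 3 (adjusted p = 0.0749 to 0.0802 and 0.0528 to 0.0913). In MG 11 genes differed in the direction of in vitro (12.3% of all) and 0 in that of ex vivo (7.55%), with Stard4 at -3.13 ± 0.44, adjusted p = 3.73e-05 (edgeR). In KCs 7 differed towards in vitro (5.06%) and 3 towards ex vivo (10.4%), with Msmo1 at -1.45 ± 0.27, adjusted p = 0.00127 and Soat1 at 1.67 ± 0.38, adjusted p = 0.00597 (edgeR). In PMs 5 differed towards in vitro (6.28%) and 6 towards ex vivo (6.96%), with Abcg1 at -3.61 ± 0.39, adjusted p = 4.38e-06 and Acaca at 4.27 ± 0.58, adjusted p = 4.80e-05 (edgeR, 5.02 without PM-LC library 3). These 4 tests use the same libraries, so their values are given side by side only.

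The third question was how far the cultures still differed from each other. Sorted AMs had differed from the rest in 31 of the 36 genes (24.7% of all genes were higher and 21.9% lower), and AM-LCs did in 11. Calls over all genes were fewer among the cultures as well. AM-LC replicates also agreed less than AM replicates (chi-square per degree of freedom of 164 to 180 against 29.6 to 55.1). A wider spread and closer levels cannot be told apart in such counts. AM-LCs were higher than the mean of the other cultures in 10 of the 36 genes (8.38% of 14813 genes tested) and lower in 1 (4.71%). Mvd led these, at 153, 149.7 and 131 CPM in AM-LCs against 20.9, 23.8 and 22.3 CPM in MG-LCs, 28.9, 25.4 and 29.4 CPM in KC-LCs and 14.6, 24.5 and 17.4 CPM in PM-LCs (2.69 ± 0.15, adjusted p = 9.58e-06, edgeR), followed by Fdps (1.68 ± 0.33, adjusted p = 0.00937), Abcg1 (1.68 ± 0.28, adjusted p = 0.00448) and Dhcr7 (1.36 ± 0.21, adjusted p = 0.00313, edgeR). Hmgcs1, Ebp, Sc5d, Fasn, Acly and Soat1 were also higher in AM-LCs, from 0.63 (Ebp) to 1.32 (Fasn), and Nr1h2 was lower (-0.56 ± 0.17). All but Mvd, Abcg1 and Dhcr7 lost the call when at least 1 library was left out, and without AM-LC library 2 the total was 4, with 15 without MG-LC library 1. Sqle, which had the widest sorted range of the synthesis genes, was at 1.08 ± 0.36 (adjusted p = 0.0752).

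Few of these genes were called when MG-LCs, KC-LCs and PM-LCs were each compared with the mean of the other cultures. The only call was Mvd, lower in MG-LCs (-0.94 ± 0.17, adjusted p = 0.0478) and in PM-LCs (-1.27 ± 0.18, adjusted p = 0.0167, edgeR), which makes 1 of 36 lower and 0 higher in MG-LCs (0.223% and 0.338% of all genes) and 1 lower and 0 higher in PM-LCs (0.122% and 0.405%). The MG-LC call ended without any library but MG-LC library 2 (adjusted p = 0.056 to 0.124) and the PM-LC call without PM-LC library 1 or 3 (0.0952 to 0.103). In KC-LCs 0 of 36 genes were called by edgeR (0.108% of all genes), 7 had an unadjusted p under 0.05 (16.2% of all), limma-voom called 0 (0.0203% of all) and DESeq2 4 (9.50% of all). KC-LCs and PM-LCs shared medium, growth factor and oxygen and were compared directly. Here edgeR called 0 of 36 (1.14% of 13126 genes were called), 11 had an unadjusted p under 0.05 (14.0% of all), 9 of them higher in KC-LCs, limma-voom called 0 (0.792% of all) and DESeq2 4 (8.33% of all). For 14 of the 18 synthesis genes, none of them called, every KC-LC library lay above every PM-LC library, as for 9.88% of all genes tested, with a class median of 0.65 against -0.04 over all genes. Sqle was at 182, 88.4 and 102 CPM in KC-LCs and 24.2, 56.4 and 51.2 CPM in PM-LCs (1.5 ± 0.41, adjusted p = 0.135, edgeR), Msmo1 at 0.50 ± 0.18, adjusted p = 0.259, and Stard4 had the smallest adjusted p (1.66 ± 0.35, adjusted p = 0.075, edgeR).

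Other genes of the pathway were read as 3 lists. In MG, KCs, PMs and AMs 25.2%, 14.4%, 16.8% and 25.9% of all genes were higher in vitro and 21.2%, 19.4%, 12.1% and 22.9% higher ex vivo, against which the counts below are to be set. Of 12 further SREBP-related genes 4, 4, 4 and 5 were higher in vitro in MG, KCs, PMs and AMs, and 1, 1, 0 and 1 higher ex vivo. Aacs, which activates ketone bodies for sterol synthesis, was higher in vitro in MG (-1.5 ± 0.33), KCs (-1.12 ± 0.30) and PMs (-1.85 ± 0.33), and Lpin1, a phosphatidate phosphatase, was higher ex vivo in AMs, at 385, 454 and 470.0 against 51.1, 53.2 and 38.1 CPM (3.19 ± 0.17, adjusted p = 4.72e-05, edgeR). Of 15 further fatty acid genes (13 to 15 tested) 5, 5, 5 and 9 were higher in vitro and 1, 1, 2 and 1 higher ex vivo. Mlxipl, the carbohydrate-responsive lipogenic factor ChREBP, stood at 207, 177 and 233 CPM in PMs and 195, 224 and 281 CPM in MG, and at 0.157, 0.459 and 0.41 CPM in PM-LCs and 0, 1.35 and 1.88 CPM in MG-LCs (9.19 ± 0.40, adjusted p = 2.63e-05, and 7.74 ± 1.33, adjusted p = 0.00628, edgeR). Fads1, the delta-5 desaturase, was higher in vitro in PMs (-5.03 ± 0.30) and AMs (-3.17 ± 0.24). Of 15 further efflux, oxysterol and trafficking genes 6, 3, 5 and 4 were higher in vitro and 5, 4, 1 and 5 higher ex vivo. Nceh1, a cholesteryl ester hydrolase, was higher in vitro in MG (-4.27 ± 0.59), KCs (-1.88 ± 0.28) and PMs (-3.23 ± 0.29), and Lipa, the lysosomal acid lipase, in MG (-3.36 ± 0.61) and PMs (-3.43 ± 0.26). In AMs Nceh1 went the other way, from 876, 795 and 786 CPM in AMs to 401, 432 and 401 CPM in AM-LCs. For Lipa every KC-LC and AM-LC library was also above all sorted libraries of its own kind. Rxra, the partner receptor of the LXRs, was higher ex vivo in KCs (2.87 ± 0.54) and AMs (2.47 ± 0.18). Ch25h, which makes an oxysterol that restrains SREBP cleavage and activates the LXRs, was at 99.4, 95.8 and 141 CPM in sorted AMs, at most 3.68 CPM in KC library 1 and at 0 in all 3 PM libraries.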

How the data were processed

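RNA-seq counts of 24 libraries (8 groups of 3, grouped by the labels) were analysed. The authors deposited whole-number counts of reads per Ensembl gene, not normalized, for 45706 identifiers, of which 45143 matched a symbol, made from single reads of a SMARTer cDNA and Nextera XT library kit that does not keep the strand. The submitters' processing notes name Trimmomatic 0.36 and STAR 2.5.2b and the build hg19, whereas the methods name mm10 and another STAR release that also counted the reads, and the identifiers are those of mouse. Gene positions and exon lengths came from a GRCm38 annotation (GENCODE) and promoters from RefSeq.

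Counts were tested in R 4.3.3 with edgeR 4.0.16 (TMM scaling, filterByExpr with a minimum count of 10, glmQLFit and glmQLFTest) and Benjamini-Hochberg adjustment over all genes tested, with a call at an adjusted p under 0.05. CPM values are counts over TMM-adjusted totals of all 24 libraries, and levels between genes are per kilobase of exon. Each culture comparison used the 6 libraries of its population, comparisons among sorted or among cultured cells used those 12, and the difference of culture effects used all 24. All 36 genes were named, and up to 3 genes per further list and comparison, taken as the largest absolute log2 fold changes among those called with an average log2 CPM above 3. The 36 genes and the lists were chosen with earlier results of these data known.

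Depth was 29569486 to 47105111 reads per library. No pair of replicates agreed within sampling noise (chi-square per degree of freedom from 13.8 to 924). Replicate numbers did not pair the samples: of 12 pairs of sorted and cultured libraries with the same number, 0 had deviations correlated above 0.1. Alternatives were limma-voom (limma 3.58.1), DESeq2 1.42.0, RLE scaling, no filter, a filter of 1 CPM in 3 libraries, an added log2 fold change above 1.5, a replicate block, a joint model, a call against each other population and leaving out each library. The fit was tested on simulated data.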

Additional observations from a re-analysis of the deposited data

Results flagged for a closer look

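The culture effect (log2 fold change of sorted over cultured cells) of 50 gene and population pairs differed from the mean effect in the other 3 populations by edgeR's quasi-likelihood test of that difference, with Benjamini-Hochberg adjustment. The values are differences of log2 fold changes, and the same libraries enter all 4 populations. Each value depends on the effects in the other 3 too, so it need not mean that the named population itself changed.

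In MG 11 genes differed, with adjusted p from 3.73e-05 to 0.0318. Among the cholesterol synthesis genes of MG the effect differed for Mvk by -1.16, Pmvk by -1.30 and Mvd by -0.99. Among the SREBP genes of MG the effect differed for Srebf1 by -1.01, Srebf2 by -1.56 and Insig1 by -1.81. Among the fatty acid synthesis genes of MG the effect differed for Acaca by -2.63, Acly by -1.18 and Scd1 by -10.69. Acaca and Acly were not called in the MG culture comparison, and both were called higher ex vivo in PMs, whose effect enters the mean. Among the efflux and trafficking genes of MG the effect differed for Nr1h2 by -0.67 and Stard4 by -3.13. The Scd1 value of MG was -12.87 without MG library 1 and -6.88 without MG-LC library 1. The calls ended for Mvk (adjusted p = 0.0595 to 0.0724, edgeR), Srebf1 (0.0506 to 0.0761) and Acly (0.0595 to 0.089) without MG library 1 or 3 or MG-LC library 1, for Srebf1 and Acly also without MG library 2, for Acly also without MG-LC library 2, and for Nr1h2 (0.0511 to 0.0728) without any MG library or MG-LC library 3.

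In KCs 10 genes differed, with adjusted p from 0.000424 to 0.0307. Among the cholesterol synthesis genes of KCs the effect differed for Hmgcs1 by -1.39, Msmo1 by -1.45, Nsdhl by -1.24, Hsd17b7 by -2.93, Ebp by -0.66 and Sc5d by -0.78. Among the SREBP genes of KCs the effect differed for Insig1 by -1.05. Among the fatty acid synthesis genes of KCs the effect differed for Scd1 by 9.91 and Scd2 by 2.34. Among the efflux and trafficking genes of KCs the effect differed for Soat1 by 1.67. The Hsd17b7 value was -2.28 without KC-LC library 1, and the Scd1 value of KCs 10.64 without MG library 1 and 8.64 without MG-LC library 1. The calls ended for Ebp without KC library 2 or KC-LC library 2 or 3 (adjusted p = 0.05 to 0.0828, edgeR), Sc5d without KC library 1 or KC-LC library 1 (0.0659 to 0.0892), Insig1 without KC library 1 or 2 or any KC-LC library (0.056 to 0.0825) and Scd2 without KC-LC library 2 (0.0567).

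In PMs 11 genes differed, with adjusted p from 4.38e-06 to 0.0185. Among the cholesterol synthesis genes of PMs the effect differed for Mvd by 0.83, Sc5d by 1.14 and Dhcr7 by -1.04. Among the SREBP genes of PMs the effect differed for Scap by -1.42 and Insig1 by 1.26. Among the fatty acid synthesis genes of PMs the effect differed for Acaca by 4.27, Acly by 2.24 and Scd2 by -2.53. Among the efflux and trafficking genes of PMs the effect differed for Abcg1 by -3.61, Npc1 by -1.54 and Stard4 by 1.78. The Acaca value of PMs was 5.02 without PM-LC library 3 and that of Scd2 -3.12 without PM library 2. The calls ended for Mvd without PM library 2 or PM-LC library 1 or 3 (adjusted p = 0.0634 to 0.084, edgeR), Dhcr7 without PM library 1 or 3 or PM-LC library 3 (0.0583 to 0.0735) and Npc1 without PM-LC library 3 (0.0501).

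In AMs 18 genes differed, with adjusted p from 8.53e-05 to 0.0451. Among the cholesterol synthesis genes of AMs the effect differed for Hmgcs1 by 2.25, Pmvk by 1.40, Fdft1 by 2.30, Sqle by 3.51, Lss by 1.37, Cyp51 by 2.35, Msmo1 by 1.85, Nsdhl by 1.55 and Hsd17b7 by 2.55. Among the SREBP genes of AMs the effect differed for Srebf1 by 1.19, Srebf2 by 1.22, Scap by 1.25 and Insig1 by 1.59. Among the fatty acid synthesis genes of AMs the effect differed for Acaca by -1.76. Acaca was not called in the AM culture comparison (7.86, 11.1 and 9.96 CPM in AMs, 9.26, 8.05 and 12.1 CPM in AM-LCs). Its PM effect of 4.48 enters the mean of the other populations. Among the efflux and trafficking genes of AMs the effect differed for Abcg1 by 2.60, Nr1h2 by 0.91, Npc1 by 1.09 and Stard4 by 1.89. The Sqle value of AMs was 4.33 without KC library 1. The calls ended for Lss (0.0749 to 0.0802, adjusted p by edgeR) and Srebf2 (0.0528 to 0.0913) without AM library 3 or AM-LC library 2 or 3, and for Acaca (0.0564 to 0.0983) without any AM library or AM-LC library 1 or 3. The call of Npc1 in AMs ended without any 1 of 18 of the 24 libraries (0.0508 to 0.138).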

How the results depend on the processing

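Of 232 gene results past the threshold, 93 kept their call under every alternative run and 0 reversed. Counts of the 36 genes called moved as follows, and the cause was not tested unless fewer genes qualify by construction. With DESeq2, KCs had 6 genes higher ex vivo in place of 3, KC-LCs against PM-LCs 4 in place of 0, and MG-LCs, KC-LCs and PM-LCs 7, 4 and 8 in place of 1, 0 and 1. With all 24 libraries in 1 model, genes higher ex vivo were 5 in KCs and 6 in AMs (10 before), and KC-LCs against PM-LCs, MG-LCs and PM-LCs had 1, 8 and 4. DESeq2 called 9.50% of all genes in KC-LCs and 8.33% in KC-LCs against PM-LCs. Other shares of all genes under DESeq2 or the single model were not computed. Whether the 36 genes moved more than other genes therefore cannot be said. Requiring a log2 fold change above 1.5 as well left, by construction, 9 PM genes higher in vitro, 2 AM genes higher ex vivo and 3 AM genes higher in culture, 10, 2, 6 and 19 in sorted MG, KCs, PMs and AMs, 0, 0 and 3 in MG-LCs, PM-LCs and AM-LCs, and 5, 4, 6 and 11 differences of culture effect in MG, KCs, PMs and AMs. Requiring a call against each other population left 10, 2, 10 and 18 in sorted MG, KCs, PMs and AMs and 0, 0 and 2 in MG-LCs, PM-LCs and AM-LCs. For this rule the share of all genes was not computed. The replicate block, for numbers that do not pair the samples, moved MG-LCs from 1 to 0 and gave 18, 14, 12 and 8 genes higher in vitro in MG, KCs, PMs and AMs. An alternative chosen after seeing the data left out MG-LC library 1, PM-LC library 2, AM-LC library 3 and KC library 1, which stand apart by markers. It was run only where more than 1 of these libraries entered: each culture against the other cultures, and the differences of culture effect. There it also gave 0 in MG-LCs. It was not run for the comparisons of sorted with cultured cells, among sorted cells or of KC-LCs with PM-LCs.

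With each library dropped in turn, MG had 14 to 25 genes higher in vitro and 1 to 3 higher when sorted, with 12 to 18 and 2 to 4 in KCs, 8 to 14 and 2 to 3 in PMs and 7 to 9 and 8 to 10 in AMs. Calls numbered 19 to 31 in sorted MG, 15 to 20 in KCs, 16 to 20 in PMs and 27 to 32 in AMs, 0 to 7 in MG-LCs, 0 to 1 in KC-LCs, 0 to 1 in PM-LCs, 4 to 15 in AM-LCs, and 0 in KC-LCs against PM-LCs. Differences of culture effect numbered 7 to 14 in MG, 7 to 12 in KCs, 8 to 13 in PMs and 14 to 18 in AMs. A count of 3 reads, 0.0659 to 0.112 CPM, limits what can be said of Scd1 in sorted MG.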
